A study of Mus musculus with 2 samples.

Results

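Of the 18187 mouse genes that carried at least 1 H3K36me2 peak in the colon, 115 were numbered zinc finger protein genes. They were chosen by name alone, as every gene with a symbol made of Zfp and a number, and they held 249 peaks. The *Nsd2* fl/fl library had 113 of these peaks at 79 of the genes, which was 0.566% of its 19976 peaks. The *Nsd2* ΔIE library had 136 at 81 of the genes, or 0.578% of its 23518 peaks. The peaks came from CUT&Tag, in which an antibody against a chromatin mark brings the transposase Tn5 to the DNA around it, on colon tissue of male C57BL/6J littermates. The *Nsd2* fl/fl mice carried floxed *Nsd2* alleles, and the *Nsd2* ΔIE mice lacked NSD2 in the intestinal epithelium, where Villin drives Cre. Both genotypes were young adults at the start of the high-fat cholesterol diet (HFCD), which lasted 16 weeks in the deposited design text and another time in the study's methods. With 1 library per genotype, and no statement of how many mice each held, a difference between them could not be set against the spread of replicates, and none was tested. The libraries are called fl/fl and ΔIE from here on.

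NSD2 adds methyl groups to lysine 36 of histone H3 and is a main source of the dimethylated form, H3K36me2, which spreads over gene bodies and the DNA between genes. Zinc finger proteins of the Cys2His2 type read DNA with rows of small zinc-holding loops, and they are the largest group of transcription factors in mammals. Many carry a KRAB domain, through which the corepressor TRIM28 (KAP1) and the H3K9 methyltransferase SETDB1 are called to retroelements and imprinted regions. Their genes often stand side by side in runs that grew by duplication, and the run genes are often similar in sequence. The symbol Zfp also covers proteins of other kinds, such as binders of RNA and ligases for ubiquitin or SUMO. By the transcription factor family written in the lists, 93 of the 115 genes were of the zf-C2H2 family, 2 (*Zfp131* and *Zfp651*) were of the ZBTB family, and 20 had no family.

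The labelled tissue was checked against marker genes. Of 13 epithelial markers, 8 had a peak in either library, as did 2 of 6 immune markers and 2 of 6 markers of stroma, muscle and endothelium, beside 43.6% of all protein-coding genes other than the numbered *Zfp* genes. *Vil1*, which encodes the villin of the brush border, had a signal of 64.9 per bp in fl/fl and 76.8 per bp in ΔIE, against medians of 6.14 and 6.32 per bp for the peaks outside the *Zfp* genes. Villin sequence also drives Cre in the ΔIE mice, and the source of the high signal at *Vil1* in both libraries was not tested. *Vil1* is counted among the 8 epithelial markers above, but the peak there was not taken by itself as a check of the tissue. Of the epithelial keratins, *Krt8* and *Krt18* had no peak, *Krt19* had a promoter peak of 4080 bp in fl/fl alone, and *Krt20* had 4581 bp in ΔIE alone. *Cdx1* (10071 bp in fl/fl and 3542 bp in ΔIE) and *Muc2* (9018 and 15304 bp) had peaks in both libraries that overlapped. *Cdh1* (5765 and 7323 bp) had peaks in both that did not overlap. *Epcam* (3063 bp) and *Lgr5* (2621 bp) had a distal peak in ΔIE alone, and *Cdx2*, *Car1* and *Slc26a3* had none. *Myh11*, a smooth muscle myosin, had 30046 bp under 6 peaks in fl/fl and 7771 bp under 2 peaks in ΔIE, while *Pecam1*, an endothelial adhesion gene, had 4483 bp under 1 peak and 10487 bp under 2. The other 4 markers of that list had none. A peak is not a level of expression, so the markers do not settle which cells the libraries held. In whole colon, a mark present in fewer cells and a weaker mark in each cell cannot be told apart, and cells outside the epithelium keep *Nsd2*.

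The *Zfp* peaks were of usual size and strength for their lists. Their median width was 5055 bp in fl/fl, from 2218 to 19324 bp, and 3430 bp in ΔIE, from 1957 to 12113 bp. The other peaks had medians of 4641 and 3426 bp. The summed signal that was deposited for each peak, divided by its width, had a median of 6.02 per bp in fl/fl and 6.14 per bp in ΔIE, against 6.14 and 6.32 per bp for the other peaks. In ΔIE, 30.1% of the *Zfp* peaks had a signal within 10% of the lowest in the list, against 26.0% of the others, and in fl/fl the shares were 23.0% and 25.5%. The lowest signal was 21783 in fl/fl and 16571 in ΔIE, so the lists began at different limits. Where a signal per bp is given for both libraries, each value describes its own list, and the difference between them was not tested.

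Over all lengths, numbered *Zfp* genes had a peak less often than other protein-coding genes, and the share was low among genes that stand beside others of their kind but not among lone ones. A RefSeq table of GRCm38.p6 held 372 numbered *Zfp* genes, and the 115 with a peak made up 30.9% of them (95% Wilson interval 26.4% to 35.8%). Among 21533 other protein-coding genes, 43.6% had a peak (42.9% to 44.2%). Of the 139 *Zfp* genes with no other numbered *Zfp* start within 200 kb, 66 had a peak (47.5%, 39.4% to 55.7%), an interval that includes the 43.6%. Of the 233 with at least 1 such neighbour, 49 had a peak (21.0%, 16.3% to 26.7%). The share was 20.2% with 1 or 2 neighbours and 21.6% with 3 or more. In each library alone the contrast was of the same kind, 33.8% without and 13.7% with a neighbour in fl/fl, and 35.3% and 13.7% in ΔIE. These intervals cover the counting of genes only, and genes of a run share their stretch of chromosome. A gene counts here as having a peak where the lists name it as the nearest gene. Of the *Zfp* peaks, 28 of the 113 in fl/fl and 37 of the 136 in ΔIE lay outside the span listed for their gene. The shares are thus not shares of genes with the mark on them, and whether the spacing of genes accounts for the contrast was not tested.

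The contrast was also seen within classes of gene length. Lone genes were longer, with a median of 21275 bp against 16072 bp, and whether length accounts for the contrast was not tested. Within the class of 10 to 20 kb, 38.1% of lone genes (16 of 42) and 18.9% of genes with a neighbour (20 of 106) had a peak. Within 20 to 40 kb the shares were 45.9% (17 of 37) and 19.0% (15 of 79). Above 40 kb they were 63.9% (23 of 36) and 15.4% (2 of 13). Only under 10 kb were they close, at 41.7% and 34.3%, with intervals of 24.5% to 61.2% and 20.8% to 50.8%. Under 10 kb, all numbered *Zfp* genes together had a peak in 37.3% of cases (22 of 59) and other protein-coding genes in 30.3%. From 10 to 20 kb the shares were 24.3% and 47.3%, from 20 to 40 kb 27.6% and 46.8%, and above 40 kb 51.0% and 56.5%. The *Zfp* intervals of 18.1% to 31.8% and 20.3% to 36.3% in the middle classes ended below the share of other genes, while those under 10 kb (with a lower bound of 26.1%) and above 40 kb (37.5% to 64.4%) included it. Protein-coding genes of other kinds that lay among the runs, with 3 or more numbered *Zfp* starts within 200 kb, had a peak in 35.3% of cases (77 of 218, 29.3% to 41.9%), between the 21.6% of the *Zfp* genes there and the 43.6% of genes with no numbered *Zfp* start nearby. How reads that fit several similar genes were placed is not given in the sources used here.

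**Figure D1:**
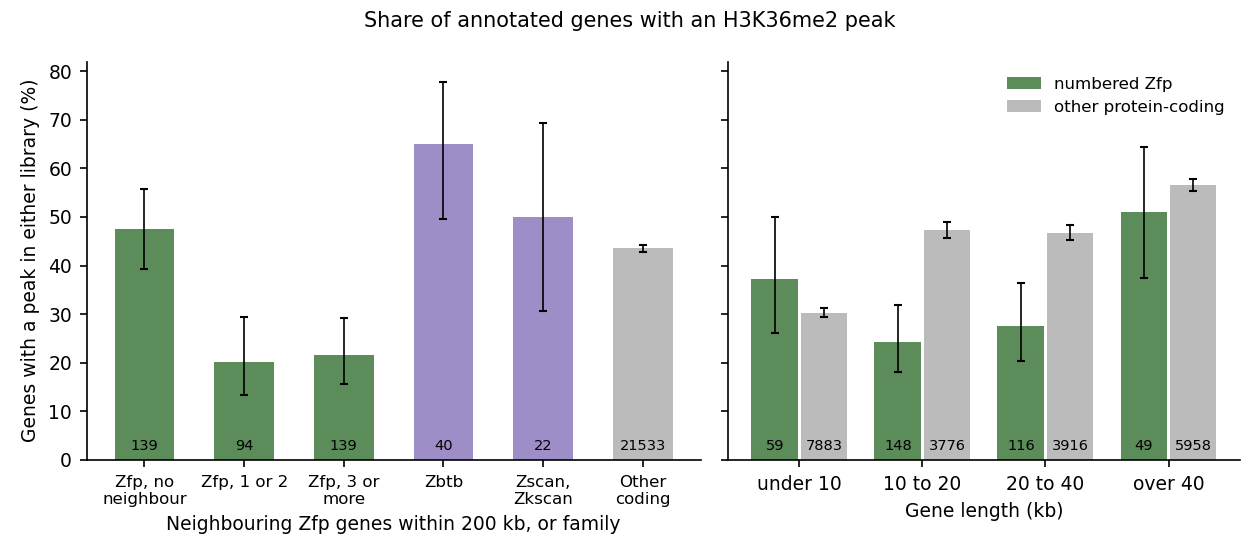
Share of genes in the RefSeq table with an H3K36me2 peak in either library, in percent, with 95% Wilson intervals as error bars and the number of genes at the foot of each bar. A gene has a peak where the lists name it as the nearest gene, also for a peak outside it. Left, numbered *Zfp* genes by how many others start within 200 kb, with comparison families; right, numbered *Zfp* genes (green) and other protein-coding genes (grey) by gene length. *Zfp* genes without a neighbour reached 47.5%, and those with neighbours 20.2% and 21.6%.

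Of the 2 longest runs in the table, each had a peak at a single gene. A run of 19 *Zfp* genes on chromosome 13 had 1 gene with a peak, *Zfp493*, and a run of 18 on chromosome 17 had 1, *Zfp229*. The next, of 15 genes on chromosome 7, had 4 genes with a peak, and runs of 10 on chromosome 7 and 9 on chromosome 4 had 2 each. A second run on chromosome 17, of 8 genes, had none. Chromosome 7 held 91 of the 372 genes, and 31 of these had a peak. On chromosome X, 0 of 7 had one, which allows a share of up to 35.4% by the Wilson interval, but the lists held only 1 and 5 peaks on that chromosome for all genes. Of related families, 65.0% of 40 *Zbtb* genes had a peak (49.5% to 77.9%), an interval above the 30.9% of numbered *Zfp* genes, and 11 of 22 *Zscan* and *Zkscan* genes (30.7% to 69.3%), an interval that includes it. *Zbtb* proteins join zinc fingers to a BTB domain, and *Zscan* and *Zkscan* proteins join them to a SCAN domain.

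In a run on chromosome 6, peaks were named for far more of the genes. Here 7 of 8 neighbouring genes in the table had a peak, namely *Zfp786*, *Zfp398*, *Zfp282*, *Zfp212*, *Zfp956*, *Zfp777* and *Zfp746*, and *Zfp783* had none. In the other runs of 5 or more genes, at most 4 of 8 had one. Their starts lay within 247 kb. Without this run, the share of genes with a neighbour that had a peak was 18.7% (42 of 225). All 7 genes had a single peak in fl/fl, covering 31476 bp in sum, while in ΔIE only *Zfp777* and *Zfp746* had one, covering 6107 bp. Of all genes with a peak, 25.2% had one in fl/fl only, 31.5% in ΔIE only and 43.3% in both libraries. In fl/fl the peaks of *Zfp398* (chr6:47807848-47814066, 6219 bp) and *Zfp786* (chr6:47801310-47804525, 3216 bp) lay on and just inside their transcription start sites (TSS). That of *Zfp956* (4320 bp) ended 249 bp before its TSS. The peak named for *Zfp282* (5952 bp) ended 1692 bp before the TSS of that gene and ran over the 3′ end of *Zfp398*. The peak named for *Zfp212* lay 13549 bp upstream of that gene, at the 3′ end of *Zfp282*. *Zfp282* and *Zfp212* thus count through a peak that lay at a neighbouring *Zfp* gene. None of these 5 genes had a ΔIE peak. At *Zfp746*, which encodes the repressor PARIS, the peaks overlapped, with 2662 bp and 8.34 per bp in fl/fl and 2812 bp and 7.27 per bp in ΔIE, and at *Zfp777* they lay at different places in the gene.

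From 50 kb before the first start to 50 kb after the last, the lists held no peak of any other gene in this stretch, so the absent ΔIE peaks did not appear there under another name. The signals of the 7 fl/fl peaks ran from 22210 to 29400, from 1.02 to 1.35 times the lowest of the list. A region just below the limit of a list would not appear in it. The run is 1 stretch of chromosome in 1 library of each genotype.

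**Figure D2:**
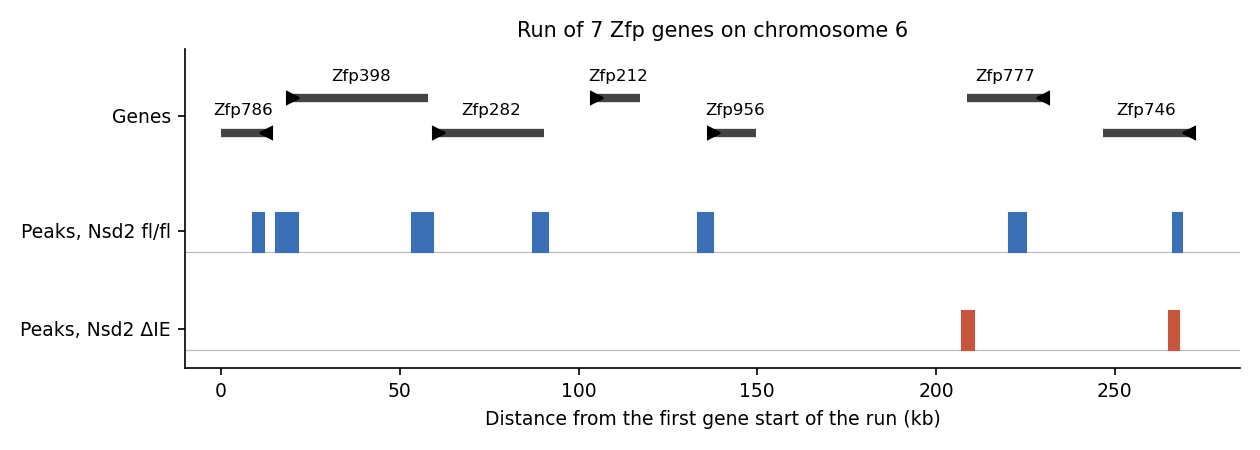
The 7 *Zfp* genes of the run on chromosome 6 (dark bars, arrowheads at the TSS pointing along transcription) and their peaks in fl/fl (blue) and ΔIE (red), to scale, in kb from the first gene start. There are 7 blue peaks and 2 red ones, and only the pair at *Zfp746* overlaps.

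By the 200 kb rule applied to the genes with a peak, 33 of the 115 lay in clusters, in 12 runs. The chromosome 6 run was the longest, followed by 2 runs of 4 genes on chromosome 7. The run of *Zfp790*, *Zfp568*, *Zfp14* and *Zfp382* had 3 peaks in fl/fl (14345 bp) and 5 in ΔIE (16988 bp). In it, *Zfp790* and *Zfp568* had overlapping peaks in both libraries, *Zfp382* had a peak in fl/fl alone and *Zfp14* in ΔIE alone. The run of *Zfp771*, *Zfp768*, *Zfp688* and *Zfp689* had 3 peaks in each library, 13480 bp and 8619 bp, and none of its *Zfp* peaks overlapped a peak of the other library. In neither of these runs was the number of peaks lower in ΔIE, as it was in the chromosome 6 run. The other 9 runs were pairs, among them *Zfp668* and *Zfp646* with peaks in fl/fl alone and *Zfp454* and *Zfp2* with peaks in ΔIE alone. The fl/fl peak of *Zfp646*, however, shared 2542 bp with a ΔIE peak named for *Prss53*. Of the 33 clustered genes, 12 had peaks in fl/fl only, 10 in ΔIE only and 11 in both, and of the 82 others 22, 26 and 34, beside 25.2%, 31.5% and 43.3% of all genes with a peak.

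The share of peaks at promoters was 61.5% for clustered genes (16 of 26, 42.5% to 77.6%) and 34.5% for the others (30 of 87, 25.3% to 44.9%) in fl/fl. In ΔIE it was 48.0% (12 of 25, 30.0% to 66.5%) and 29.7% (33 of 111, with an upper bound of 38.8%). The intervals overlapped in both libraries. In the pathway annotation of the lists, 38 of the 115 genes carried the KEGG term for herpes simplex virus 1 infection, a map that holds many KRAB zinc finger proteins. Of these 38 genes, 60.5% were clustered, against 13.0% of the other 77. Their peaks lay at promoters in 55.2% of cases in fl/fl and 48.3% in ΔIE, against 35.7% and 29.0% for the other *Zfp* genes.

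Over all *Zfp* peaks, the promoter, which in the lists reaches 3 kb to either side of a TSS, held 40.7% in fl/fl (46 of 113, 32.1% to 49.9%) and 33.1% in ΔIE (45 of 136, 25.7% to 41.4%). The other peaks had 32.1% and 27.8%, the first at the lower end of the *Zfp* interval and the second inside it. Peaks at a 5′ UTR away from the promoter were 7.08% (3.63% to 13.4%) and 8.09% (4.58% to 13.9%), above the 3.47% and 2.89% of other peaks. Distal intergenic peaks were fewer, at 9.73% and 12.5% against 18.1% and 20.2%, and so were peaks in exons, at 8.85% and 11.8% against 16.6% and 17.4%. For these the *Zfp* intervals ended below the share of other peaks in fl/fl, and in ΔIE for the distal peaks alone. Introns held 21.2% and 23.5%, close to the 21.0% and 23.6% of other peaks. The lists name the nearest gene, and 11 fl/fl and 14 ΔIE peaks named for a *Zfp* gene lay in a UTR, exon or intron outside the span that the lists give for it. Of these, 2 in each library were in an intron of a further *Zfp618* transcript.

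**Figure D3:**
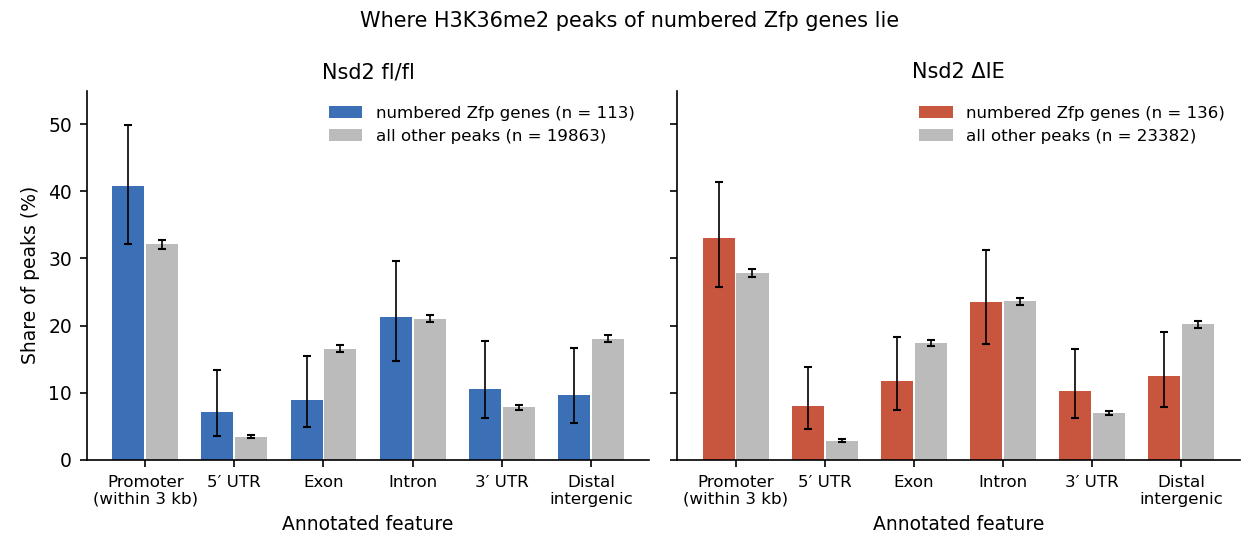
Share of peaks, in percent, at each annotated feature for numbered *Zfp* genes (coloured) and for all other peaks (grey), in fl/fl (left) and ΔIE (right). Error bars are 95% Wilson intervals, and both libraries show more *Zfp* peaks at promoters and 5′ UTRs and fewer in exons and distal regions than among the other peaks.

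Within the promoter, the *Zfp* peaks leaned toward the gene. Of the 46 in fl/fl, 22 lay over the TSS, 19 began downstream of it and 5 ended upstream of it, and of the 45 in ΔIE 16, 24 and 5 did so. The downstream share was 41.3% (28.3% to 55.7%) and 53.3% (39.1% to 67.1%), against 27.6% and 32.6% of the other promoter peaks. The highest point of the peak lay at a median of 1410 bp inside the gene in fl/fl and 2193 bp in ΔIE, against 725 and 522 bp for the others. A promoter peak was present at 70 of the 115 genes (60.9%, 51.7% to 69.3%), beside 51.1% of all genes with a peak. Of the 70 genes, 13 had one in both libraries (18.6%, 11.2% to 29.2%), beside 24.8% of all genes with a promoter peak. All 115 *Zfp* genes were protein-coding, but the 18187 genes of the background also include non-coding ones. In the RefSeq table, 9379 other protein-coding genes had a peak, and their promoter share is not reported here.

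The promoter peaks of both libraries overlapped at 12 genes, and for 7 of these a single promoter was taken from a RefSeq promoter table. For 4 of the 7, the 250 bases before the start in that table are shown, 5′ to 3′, because the median promoter of the *Zfp* genes with a promoter peak was rich in CG, the target of DNA methylation. They were picked to span the range of CG counts. The capitals mark each CG, and coordinates are of GRCm38.p6, a build other than that of the peaks. Whether the start used there is the one used in the lists was not checked.
Zfp180 (chr7:24081647-24081896, plus strand): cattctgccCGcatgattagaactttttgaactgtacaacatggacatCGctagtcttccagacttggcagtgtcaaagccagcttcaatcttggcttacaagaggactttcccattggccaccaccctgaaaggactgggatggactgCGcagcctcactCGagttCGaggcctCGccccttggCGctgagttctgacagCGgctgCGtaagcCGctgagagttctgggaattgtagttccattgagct
Zfp598 (chr17:24669437-24669686, plus strand): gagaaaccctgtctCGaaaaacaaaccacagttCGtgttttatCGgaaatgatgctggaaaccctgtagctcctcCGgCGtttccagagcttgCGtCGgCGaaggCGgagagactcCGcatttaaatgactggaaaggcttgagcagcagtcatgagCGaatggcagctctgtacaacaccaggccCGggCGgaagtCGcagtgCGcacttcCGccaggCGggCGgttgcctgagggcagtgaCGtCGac
Zfp667 (chr7:6286330-6286579, plus strand): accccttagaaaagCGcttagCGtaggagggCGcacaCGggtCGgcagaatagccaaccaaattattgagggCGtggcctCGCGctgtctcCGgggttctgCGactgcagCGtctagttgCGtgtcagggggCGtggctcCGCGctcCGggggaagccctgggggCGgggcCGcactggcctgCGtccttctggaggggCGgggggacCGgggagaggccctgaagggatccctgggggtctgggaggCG
Zfp746 (chr6:48086594-48086843, minus strand): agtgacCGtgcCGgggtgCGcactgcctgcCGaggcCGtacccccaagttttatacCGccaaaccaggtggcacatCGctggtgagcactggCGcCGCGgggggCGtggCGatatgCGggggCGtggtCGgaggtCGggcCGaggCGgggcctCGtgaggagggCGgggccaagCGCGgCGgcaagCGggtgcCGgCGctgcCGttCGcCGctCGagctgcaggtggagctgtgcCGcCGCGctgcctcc

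These stretches held 10 CG at *Zfp180*, 20 at *Zfp598*, 22 at *Zfp667* and 33 at *Zfp746*. Of the 115 genes, 87 were in the promoter table, whose windows run 300 bases, from 250 before to 50 after a start. The median window of *Zfp* genes with a promoter peak held 21 CG (quartiles 16 and 28.5, 62 promoters), that of *Zfp* genes with other peaks only 17.5 (46 promoters), and that of *Zfp* genes with no peak 11 (262 promoters). All 32851 promoters of the table had a median of 7. On both strands, the ETS core CCGGAAG was found in 21.9% of 370 *Zfp* promoters and 8.86% of all promoters, the TATA box TATAAA in 7.03% and 13.6%, and the GC box GGGGCGGG in 19.2% and 16.5%. Among *Zfp* promoters the ETS core was in 17.7% of those with a promoter peak, 28.3% of those with other peaks only and 21.8% of those with no peak, and the GC box in 29.0%, 30.4% and 14.9%. A match is a description of the letters and not a site.

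The peaks of 3 of the genes shown were as follows. *Zfp598*, a ubiquitin ligase that senses collided ribosomes, had a peak of 5350 bp in fl/fl (chr17:24896737-24902086) with 5.85 per bp. In ΔIE it had one of 4997 bp over the TSS with 8.71 per bp, rank 1049 of the list, and a further peak of 2702 bp upstream. *Zfp180* had peaks of 3055 bp and 3105 bp, with 7.67 and 7.30 per bp. *Zfp667* had peaks of 4421 bp and 2721 bp, with 6.97 and 6.75 per bp.

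Between the genotypes, the *Zfp* genes divided much as all genes did. A peak in fl/fl only was listed for 34 of the 115 genes (29.6%; 25.2% of all 18187 genes), in ΔIE only for 36 (31.3%; 31.5% of all), and in both for 45 (39.1%; 43.3% of all). Among the 45, the length under peaks was lower in ΔIE at 17, higher at 7 and similar at 21, with a log2 ratio of ΔIE to fl/fl of 0.5 in either direction as the limit. These were 37.8%, 15.6% and 46.7% of the 45, beside 41.8%, 19.0% and 39.1% of the 7870 genes of all kinds with peaks in both. With the genes of 1 library counted as lower or higher, 51 genes had less length in ΔIE (44.3%), against 43.3% of all genes, and 43 had more (37.4%), against 39.7% of all genes. The shares of *Zfp* genes were thus near the background in either direction, a background that mixes coding and non-coding genes. With log2 ratios centred on the median of all genes the order turned, to 44 *Zfp* genes with less and 47 with more, beside 37.5% and 44.0% of all genes. Among genes with peaks in both libraries the median log2 ratio was -0.09 for *Zfp* genes, with quartiles of -0.70 and 0.13, and -0.32 for all genes.

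**Figure D4:**
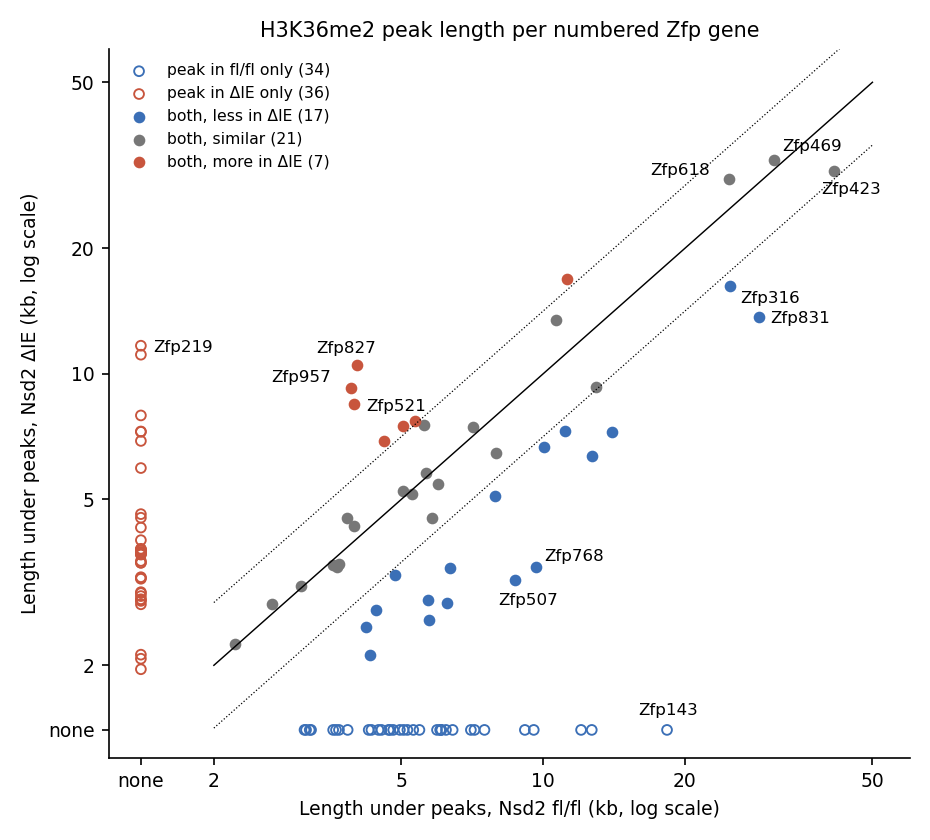
Length under H3K36me2 peaks of each of the 115 *Zfp* genes in fl/fl (x axis) and ΔIE (y axis), in kb on log scales, with genes that had no peak in a library at "none". The solid line marks equal length and the dotted lines a log2 ratio of 0.5 in either direction, and 17 genes lie below and 7 above these lines.

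Of the genes with peaks in both libraries, length fell most at *Zfp768*, from 9634 to 3437 bp (log2 ratio -1.49), *Zfp507*, from 8715 to 3211 bp (-1.44), *Zfp46*, from 5725 to 2570 bp (-1.16), *Zfp644*, from 6251 to 2823 bp (-1.15), and *Zfp831*, from 28775 to 13672 bp (-1.07). *Zfp644* encodes a partner of the H3K9 methyltransferases G9a and GLP. At *Zfp644* and *Zfp831* the peaks of the libraries overlapped. At *Zfp768*, *Zfp507* and *Zfp46* they did not, so a lower sum there came from different positions.

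Length rose most at *Zfp827*, from 4035 to 10490 bp (log2 ratio 1.38), *Zfp957*, from 3902 to 9231 bp (1.24), *Zfp521*, from 3965 to 8449 bp (1.09), *Zfp64*, from 4587 to 6904 bp (0.59), and *Zfp516*, from 11250 to 16915 bp (0.59). *Zfp827* encodes a protein that brings the NuRD complex to telomeres, *Zfp521* a regulator of blood and neural progenitors, and *Zfp516* an activator of the brown fat gene *Ucp1*. The fl/fl peak of *Zfp827* (chr8:79806922-79810956) returned at nearly the same start in ΔIE (chr8:79806925-79810523), which had 2 further peaks in the gene. At *Zfp521* the single fl/fl peak lay 124318 bp inside the gene, and neither ΔIE peak overlapped it.

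Of the genes with a peak in 1 library, the longest in fl/fl were *Zfp143* with 18320 bp, *Zfp523* with 12681 bp and *Zfp609* with 12036 bp. *Zfp143* encodes a factor bound at promoters and at the ends of chromatin loops. Its peak of 11259 bp at the 3′ UTR (chr7:109683452-109694710) ranked 556 in the list. In ΔIE the longest were *Zfp219* with 11677 bp, *Zfp324* with 11112 bp and *Zfp276* with 7946 bp, each under 2 peaks. *Zfp219* encodes a partner of SOX9 in cartilage, and its wider peak, of 8134 bp at the 3′ UTR, ranked 708 in the list. Part of such differences is one of names. For 6 of the 34 genes of fl/fl and 3 of the 36 of ΔIE, a peak overlapped one of the other library that was named for another gene. These were 17.6% (8.35% to 33.5%) and 8.33% (2.87% to 21.8%), beside 5.51% and 4.96% of all genes with peaks in fl/fl only and in ΔIE only. The peak of 9390 bp at *Zfp523* was of this kind, overlapping one named for *Scube3*.

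By position, 47 of the 113 fl/fl *Zfp* peaks overlapped a ΔIE peak by at least 1 bp (41.6%, 32.9% to 50.8%; 34.1% of all fl/fl peaks), and 52 of the 136 ΔIE peaks overlapped a fl/fl peak (38.2%, 30.5% to 46.6%; 30.7% of all ΔIE peaks). The background shares lay inside the interval of the *Zfp* peaks in fl/fl and near its lower end in ΔIE. There were 57 overlapping pairs, 48 of them named for the same *Zfp* gene on both sides, at 29 genes, so that 16 of the 45 genes with peaks in both libraries had them at different places (35.6%, 23.2% to 50.2%; 39.3% of all genes with peaks in both). In 22 pairs at least 50% of both peaks was shared, and in 3 pairs of the same gene at least 90%. The median overlap was 2202 bp. A pair on chromosome 4 was 1 region under 2 names, *Zfp985* in fl/fl (chr4:147609701-147613283, 8.23 per bp) and *Zfp982* in ΔIE (chr4:147609530-147613313, 9.80 per bp), more than 24 kb from either gene's TSS.

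A large part of the overlap lay at a few genes with many peaks. In fl/fl 59 of the 79 genes had a single peak and in ΔIE 51 of the 81, but 6 genes had 6 or more peaks over both libraries. They held 25 of the 113 peaks in fl/fl (22.1%) and 35 of the 136 in ΔIE (25.7%), of which 17 and 20 were shared. Without them, the shared peaks were 34.1% in fl/fl and 31.7% in ΔIE, next to the 34.1% and 30.7% of all peaks. The 6 genes were *Zfp618*, *Zfp423*, *Zfp469*, *Zfp831*, *Zfp516* and *Zfp704*.

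*Zfp423*, a partner of EBF factors that commits cells to fat, had 6 peaks over 41431 bp in fl/fl and 8 over 30588 bp in ΔIE. The widest, of 13973 bp in intron 3 (chr8:88451091-88465063, rank 235), was met in ΔIE by a peak of 2444 bp at its edge. *Zfp469*, whose human counterpart is mutated in brittle cornea syndrome, had 5 peaks over 30894 bp and 6 over 32612 bp, and 4 and 5 of these were shared. Of its 5 fl/fl peaks, that of 9217 bp upstream of the TSS (chr8:122756024-122765240) had the largest summed signal, 58904, but the lowest signal per bp, 6.39, and it was met by 2 peaks in ΔIE. *Zfp618*, whose product binds UHRF2, had 6 peaks over 24847 bp and 9 over 29361 bp. *Zfp831* had 4 peaks in each library, and a fl/fl peak of 14377 bp (chr2:174496862-174511238, rank 200) was met by 2 in ΔIE, of 2406 and 4170 bp. Only 1 peak of *Zfp516* and 1 of *Zfp704* in fl/fl was shared.

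**Figure D5:**
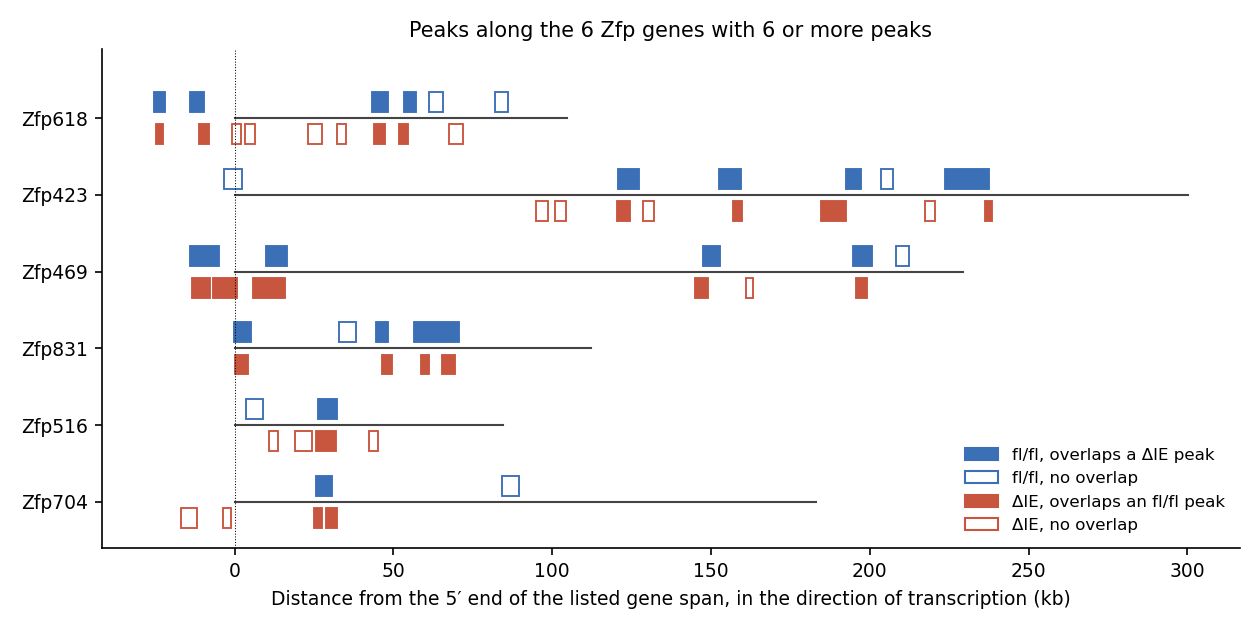
Peaks along the 6 *Zfp* genes with 6 or more peaks, in kb from the 5′ end of the gene span given in the lists (grey line), with fl/fl above in blue and ΔIE below in red. Filled boxes overlap a peak of the other library and open boxes do not, and 17 blue and 20 red boxes are filled.

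The widest *Zfp* peak in each library was at *Zfp316*. It spanned 19324 bp in fl/fl (chr5:143236520-143255843, 5.74 per bp, rank 79) and ran over the TSS. In ΔIE the same stretch held 2 peaks, of 12113 bp (chr5:143238242-143250354, 7.09 per bp, rank 59) and 4085 bp. The highest signal per bp of a *Zfp* peak in fl/fl was 12.7, in a narrow peak of 2218 bp upstream of *Zfp369* (chr13:65406004-65408221), and the overlapping ΔIE peak of 2244 bp had 8.35 per bp. By each gene's highest peak, next in fl/fl were *Zfp469* with 8.92, *Zfp687* with 8.64, *Zfp746* with 8.34 and *Zfp608* with 8.32 per bp. In ΔIE the genes with the highest peaks were *Zfp982* with 9.80, *Zfp446* with 9.61, *Zfp618* with 9.51, *Zfp689* with 9.15 and *Zfp69* with 8.92 per bp. These peaks were narrower than the median *Zfp* peak of their list, except that at *Zfp982*.

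By role, 2 of 7 genes known for imprints and retroelements had a peak, beside 30.9% of all numbered *Zfp* genes. *Zfp57*, *Zfp809*, *Zfp932*, *Zfp819* and *Zfp708* had none in either library. *Zfp57* protects imprinted regions in the embryo, and *Zfp809* silences retroviral DNA. *Zfp445*, which acts with *Zfp57* at imprints, had a promoter peak of 2931 bp in ΔIE alone, and *Zfp568*, a repressor of an *Igf2* promoter, had 5634 bp in fl/fl and 5781 bp in ΔIE at overlapping places inside the gene.

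Of 20 regulators of development and transcription, 11 had a peak, beside the same 30.9%. Most of the 20 had no numbered *Zfp* neighbour within 200 kb, and of all such lone *Zfp* genes 47.5% had a peak. The peaks were in fl/fl only at 2, in ΔIE only at 3 and in both at 6, beside 25.2%, 31.5% and 43.3% of all genes with a peak. Of the 6, *Zfp750*, a regulator of epidermal differentiation, had less length in ΔIE (6355 and 3427 bp), *Zfp516* and *Zfp521* had more, and *Zfp423*, *Zfp366* and *Zfp503* were similar. *Zfp366*, known from dendritic cells, had 12976 bp and 9284 bp. *Zfp217* (4696 bp) and *Zfp335* (4537 bp) had a peak in fl/fl alone, and *Zfp219*, *Zfp462* (6903 bp) and *Zfp536* (3773 bp) in ΔIE alone. The pluripotency marker *Zfp42* (Rex1) and 8 others had none.

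Of 9 genes listed under proteins that act on RNA, ubiquitin or SUMO, 5 had a peak, again beside 30.9%. Whether *Zfp365*, which is among the 5, belongs under that heading was not checked. All 9 were lone genes, of which 47.5% had a peak among the numbered *Zfp* genes. The peak named for *Zfp36*, which encodes the mRNA decay factor tristetraprolin, was 6071 bp wide in fl/fl alone and lay 3181 bp upstream of the gene, in a 3′ UTR of another transcript. *Zfp451*, a SUMO ligase, had 4732 bp in fl/fl alone. *Zfp106*, an RNA-binding protein, had a promoter peak of 4608 bp and *Zfp365* a distal peak of 2995 bp, both in ΔIE alone. *Zfp598* had more length in ΔIE, 7699 against 5350 bp.

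Of 16 genes for partners in KRAB silencing and DNA methylation, 6 had a peak, beside 43.6% of protein-coding genes other than the numbered *Zfp* genes. *Trim28* and *Setdb1*, and the HP1 genes *Cbx1*, *Cbx3* and *Cbx5*, had none in either library. *Uhrf1*, which brings DNMT1 to newly copied DNA, had overlapping promoter peaks of 6674 bp in fl/fl and 3106 bp in ΔIE. *Dnmt3a*, whose product reads H3K36me2 through its PWWP domain, had 3 peaks over 12428 bp and 4 over 18967 bp, none of them overlapping. *Dnmt3b* had a promoter peak of 6775 bp in fl/fl alone, and *Dnmt1*, *Atf7ip* and *Resf1* had a peak in ΔIE alone. At *Nsd2* itself the ΔIE library had a promoter peak and the fl/fl library had none. A histone peak does not report on the floxed exons, so this gives no check of the labels.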

How the data were processed

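H3K36me2 was measured by CUT&Tag in colon, in a single library of each genotype, fl/fl and ΔIE, grouped by the sample labels. The submitters' processing notes name Bowtie2, deepTools, SEACR and ChIPseeker, without versions, and hg38, which cannot be the build of mouse peaks. The deposited lists hold, for each peak called by the authors in 1 library, a position, a width in bp, the signal summed over it, the gene closest to it and the kind of feature it lies on. A scaling of the signal to depth is not given in the sources used here, and the read depth is unknown. Of 141 transcript entries of the *Zfp* genes, 29 had the same length in the RefSeq table of GRCm38.p6 and 0 of these the same start. The coordinates of peaks are therefore those of the lists, and the table served for names, lengths and neighbours.

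Genes were taken by the pattern Zfp plus digits, and clusters by starts within 200 kb. Lengths under peaks were summed per gene, with a log2 limit of 0.5. Peaks sharing at least 1 bp were called shared. Shares have 95% Wilson intervals, which cover counting error only. Python 3.11.15, pandas 2.3.3, numpy 2.4.6 and scipy 1.17.1 were used, and the functions were tested on simulated data. The members and gene lists were chosen with earlier results of these data known. Genes were named by rule, namely the 5 with the highest signal per bp in each library, the 5 largest falls and rises in length, the 3 longest in 1 library only, the 3 largest clusters, the role lists and *Nsd2*. *Zfp316*, the members with 6 or more peaks, the runs of the RefSeq table, the other pairs, *Zfp180*, *Zfp667*, and the ZBTB members were named after their values were seen. Protein sequences were not analysed here, and the values of single immune markers are not reported here. Alternatives were autosomes only, merging within 1 kb, equal numbers of peaks, other name patterns, a promoter of 1 kb, the strongest 50% of each list, a reciprocal overlap of 50%, a log2 limit of 1, centred ratios, promoter peaks only, clusters at 100 and 500 kb, and protein-coding genes only.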

Additional observations from a re-analysis of the deposited data

How the results depend on the processing

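The alternatives gave 37 values, of which 29 lay within 1.5 times the count or inside the interval of the share, and 8 moved. With a promoter of 1 kb, the share of *Zfp* peaks at promoters was 30.1% in fl/fl and 19.9% in ΔIE, as fewer peaks qualify by construction. Among the other peaks it was 23.2% and 18.5%. A reciprocal overlap of 50% left 19.5% and 16.2% of *Zfp* peaks shared, and the strongest 50% of each list 31.1% and 28.6%. A log2 limit of 1 raised the genes of similar length to 36, and promoter peaks alone lowered them to 5. With equal numbers of peaks, the length in ΔIE was lower at 56 genes and higher at 36, and with centred ratios 44 had less and 47 more, so that the order of less and more depends on the setting. After centring the order was the opposite of that in the report. For equal numbers of peaks, reciprocal overlap, the strongest 50%, the log2 limit of 1 and promoter peaks alone, the matching shares of all genes or peaks are not reported here. Those values therefore do not set the *Zfp* genes apart from the rest of the lists. The alternatives without the genes of 6 or more peaks, and with overlaps under another gene's name set aside (45 less and 40 more), were chosen after seeing the data. No paired analysis was possible because there is a single library of each genotype. With the depth unknown, an unlisted region may lack the mark or may only fall short of its list's lowest signal.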
